A study of Mus musculus with 12 samples.

Results

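The genes described here are 10 that encode proteins of the lipid droplet surface and the lipases that act on it: the perilipins *Plin2*, *Plin3*, *Plin4*, and *Plin5*, the CIDE genes *Cidea*, *Cideb*, and *Cidec*, the lipases *Pnpla2* and *Pnpla3*, and the lipase inhibitor *G0s2*. They were chosen by symbol from the 22456 genes of the expression table, and all 10 were found there. RNA-Seq was performed on liver of 12 male mice of the BALB/cByJ background, aged 2 to 8 months and fed chow, with 3 mice in each of 4 groups. The groups were *Lpin1*+/+ mice, labeled WT, and *Lpin1*-/- littermates carrying the fld (fatty liver dystrophy) allele, labeled FLD, each taken after a 16-hour fast or after a 16-hour fast and 5 hours of refeeding. The allele is germline, so lipin 1 was missing from all tissues and through development, and the refed livers were collected later in the day than the fasted ones. Effects of feeding and of time of day therefore cannot be told apart.

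In hepatocytes, triglyceride is stored in droplets that are enclosed by a phospholipid monolayer and coated by proteins. Perilipins shield the triglyceride from lipases or, in the case of *Plin5*, connect droplets to mitochondria. CIDE proteins move lipid between droplets, and *Cideb* also helps to load triglyceride onto very low density lipoprotein. *Pnpla2* encodes adipose triglyceride lipase (ATGL), which starts droplet breakdown, and *G0s2* encodes its inhibitor. Lipin 1 itself has 2 functions, as the phosphatase that makes diacylglycerol for triglyceride synthesis and as a transcriptional coactivator of fatty acid oxidation genes. Fasting normally brings adipose fatty acids to the liver and enlarges its droplets.

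Levels are RPKM, that is, reads scaled to transcript length and to the mapped reads of the library. The values resolve to whole reads, at a depth of 93.5 to 124.9 M mapped reads per library. *Lpin1* was at 0.00573 to 0.0597 RPKM in the 6 *Lpin1*-/- libraries and at 0.726 to 22.0 RPKM in the 6 *Lpin1*+/+ libraries, so every library was on the side of its label. Replicate 1 of fasted *Lpin1*+/+ stood apart from its group, with 22.0 RPKM of *Lpin1* against 0.726 and 1.76 in the other 2 libraries. All 6 hepatocyte markers were measured, and their summed level was 34107 to 74850 RPKM over the 12 libraries. Of these 6, 1 was called lower in fasted *Lpin1*-/- liver and 0 differed in refed liver (limma, adjusted p under 0.05). The mean of *Apob* was 294 RPKM in fasted *Lpin1*+/+ and 130 RPKM in fasted *Lpin1*-/- liver, and that of *Ttr* 12285 and 10783 RPKM. The fasted means of *Alb*, *Apoa1*, *Serpina1a*, and *Fgb* were higher in *Lpin1*-/-. In whole liver, fewer cells of a type and less RNA per cell cannot be told apart.

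Droplet genes differed between the genotypes in both feeding states. In fasted liver, *Pnpla2*, *Plin5*, and *Plin4* rose and *Cideb* and *Plin2* fell in *Lpin1*-/- compared with *Lpin1*+/+ mice. In refed liver, *Pnpla2*, *Plin5*, and *Plin4* were again higher and *Cideb* again lower. That made 5 of 9 tested genes called in fasted liver (limma, adjusted p under 0.05), where 18.8% of all 11507 genes tested were called. It made 4 of 9 in refed liver, where 6.67% of all genes were called. *Pnpla3* was under the minimum mean of 0.5 RPKM and was not tested in this fit. The median log2 fold change of the 9 genes was 0.45 in fasted and 0.63 in refed liver, beside -0.14 and -0.07 over all genes tested. The 3 libraries of each genotype did not overlap for 7 of the 10 genes in fasted and for 7 of 10 in refed liver. The same was true of 32.9% and 33.9% of all genes tested. *Pnpla3* is among the 7 in both states, although it is not among the genes tested. The fold changes are on the log2(RPKM + 1) scale, which understates changes of genes at low levels. The p-values measure only the spread between these mice.

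**Figure D1:**
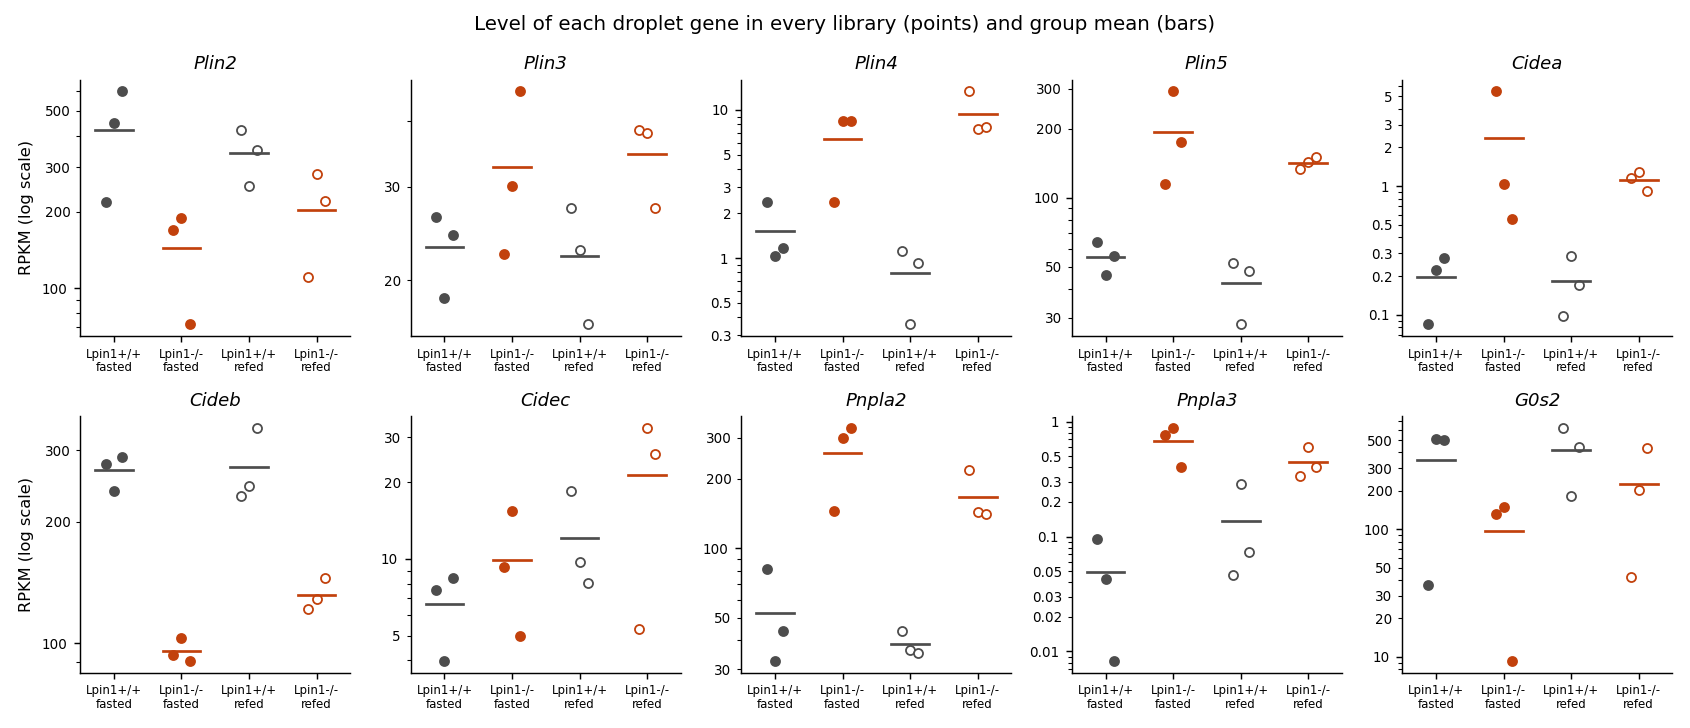
RPKM of the 10 droplet genes on a log axis, with a point for each library, a horizontal bar for each group mean, filled points for fasted and open points for refed liver, gray for Lpin1+/+ and orange for Lpin1-/-. Pnpla2 and Plin5 lie higher and Cideb lower in all 6 Lpin1-/- libraries than in all 6 Lpin1+/+ libraries, whereas G0s2 covers a wide range in each group.

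*Pnpla2* (GRCm38 chr7:141455198-141460743, plus strand) had the largest fasted genotype difference of the 9 genes on the log2(RPKM + 1) scale, although that of *Cidea* was larger with a pseudocount of 0.1 and as a ratio of means. It was at 81.0, 32.6, and 43.9 RPKM in fasted *Lpin1*+/+ and at 145, 301, and 331 RPKM in fasted *Lpin1*-/- liver. In refed liver the values were 43.8, 36.4, and 35.4 RPKM in *Lpin1*+/+ and 217, 144, and 140 RPKM in *Lpin1*-/-. Thus all 6 *Lpin1*-/- libraries exceeded all 6 *Lpin1*+/+ libraries, including replicate 1 of fasted *Lpin1*+/+, the highest of its genotype. The mean was 4.94-fold higher in fasted *Lpin1*-/- liver (log2 fold change 2.30 ± 0.36 SE, n = 3 per group, limma adjusted p = 0.00197) and 4.33-fold higher in refed *Lpin1*-/- liver (2.06 ± 0.36, limma adjusted p = 0.00926). *Pnpla2* RNA was the most abundant of the 10 genes per length in fasted *Lpin1*-/- liver by its mean of 259 RPKM, although its libraries overlapped those of *Plin5* (mean 194 RPKM). In fasted *Lpin1*+/+ liver it ranked number 5, with a mean of 52.5 RPKM.

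*G0s2* (chr1:193272161-193273217, minus strand), which encodes the protein that binds and inhibits ATGL, varied more between mice than any other gene of the set. Its values were 36.9, 514, and 504 RPKM in fasted *Lpin1*+/+ and 132, 150, and 9.29 RPKM in fasted *Lpin1*-/- liver. In refed liver they were 620, 184, and 438 RPKM in *Lpin1*+/+ and 42.0, 204, and 430 RPKM in *Lpin1*-/-. The groups overlapped in both states. The SD within a group was 0.90 to 2.19 on the log2(RPKM + 1) scale, against a median of 0.22 to 0.34 over all genes tested. The log2 fold change between genotypes was -1.86 in fasted liver (95% interval -4.58 to 0.87, limma adjusted p = 0.327) and -1.24 in refed liver (-3.97 to 1.48, adjusted p = 0.595), so a difference was not detectable at this spread. With a library left out, the fasted value ran from -3.11 without replicate 1 of fasted *Lpin1*+/+ to -0.60 without replicate 3 of fasted *Lpin1*-/-, and the refed value from -1.98 to -0.32 without replicate 3 or replicate 1 of refed *Lpin1*-/-. Relative to its inhibitor, *Pnpla2* stood at 0.0634 to 2.20 in fasted *Lpin1*+/+ and 1.10 to 35.6 in fasted *Lpin1*-/- liver as a ratio of RPKM. Refed *Lpin1*+/+ libraries had ratios of 0.0707 to 0.198, and refed *Lpin1*-/- libraries had ratios of 0.327 to 5.17. The genotypes overlapped in this ratio in fasted but not in refed liver.

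*Pnpla3* (chr15:84167837-84187236, plus strand), a lipid droplet protein of the same family, was close to absent in *Lpin1*+/+ liver. It had 12, 5, and 1 reads in fasted *Lpin1*+/+ and 91, 110, and 50 reads in fasted *Lpin1*-/- libraries. In refed liver it had 5, 39, and 10 reads in *Lpin1*+/+ and 49, 85, and 52 reads in *Lpin1*-/- libraries. Each genotype stayed on its own side in both states, at levels of 0.00827 to 0.287 RPKM in *Lpin1*+/+ and 0.337 to 0.880 RPKM in *Lpin1*-/- liver. When genes of any level entered the limma fit, its adjusted p was 0.00772 in fasted and 0.146 in refed liver.

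Among the perilipins, *Plin5* (chr17:56111601-56117596, minus strand) rose in *Lpin1*-/- liver and *Plin2* (chr4:86648386-86670060, minus strand), the main perilipin of hepatocytes, fell. *Plin5* was at 64.3, 46.3, and 55.6 RPKM in fasted *Lpin1*+/+ and at 115, 292, and 175 RPKM in fasted *Lpin1*-/- liver. In refed liver it was at 52.0, 28.1, and 47.9 RPKM in *Lpin1*+/+ and at 133, 144, and 151 RPKM in *Lpin1*-/-. The genotypes were separate in both states, and the refed *Lpin1*-/- libraries were the closest together. The mean of *Plin5* was 3.504-fold higher in fasted *Lpin1*-/- (log2 fold change 1.70 ± 0.32 SE, n = 3 per group, limma adjusted p = 0.00452) and 3.34-fold higher in refed *Lpin1*-/- liver (1.76 ± 0.32, limma adjusted p = 0.0101).

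*Plin2* had 219, 450, and 598 RPKM in fasted *Lpin1*+/+ and 170, 188, and 72.0 RPKM in fasted *Lpin1*-/- liver. In refed liver, it had 420, 253, and 351 RPKM in *Lpin1*+/+ and 111, 281, and 220 RPKM in *Lpin1*-/-. The fasted genotypes did not overlap, but the refed genotypes did. Its mean was 2.95-fold lower in fasted *Lpin1*-/- liver (log2 fold change -1.55 ± 0.47 SE, n = 3 per group, limma adjusted p = 0.0404). This call did not hold under 11 of 19 other settings, with adjusted p-values up to 0.158 when replicate 3 of fasted *Lpin1*+/+ was left out. In refed liver the log2 fold change was -0.81 (95% interval -1.84 to 0.22, limma adjusted p = 0.341).

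As the level of *Plin5* was high where that of *Plin2* was low, the make-up of the perilipin RNA differed more than its sum. The 4 perilipins together came to 312 to 679 RPKM in fasted *Lpin1*+/+ and 301 to 519 RPKM in fasted *Lpin1*-/- liver, with overlapping ranges. The refed sums overlapped as well, at 304 to 501 RPKM for *Lpin1*+/+ and 296 to 470 RPKM for *Lpin1*-/-. However, the ratio of *Plin5* to *Plin2* RPKM was 0.0930 to 0.294 in the 6 *Lpin1*+/+ libraries and 0.510 to 2.43 in the 6 *Lpin1*-/- libraries. *Plin5* RNA exceeded *Plin2* RNA in 3 of the *Lpin1*-/- libraries, 2 of them fasted, and in no *Lpin1*+/+ library.

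*Plin4* (chr17:56100591-56109803, minus strand), a perilipin typical of adipose tissue and muscle, lies 1797 bases from *Plin5* on the same strand. It was at a much lower level, with 2.37, 1.03, and 1.17 RPKM in fasted *Lpin1*+/+ and 2.38, 8.42, and 8.45 RPKM in fasted *Lpin1*-/- liver. In refed liver, *Plin4* was at 1.11, 0.357, and 0.920 RPKM in *Lpin1*+/+ and at 13.4, 7.40, and 7.64 RPKM in *Lpin1*-/-. The genotypes were well apart in refed liver, whereas in fasted liver replicate 1 of each genotype had almost the same value. The log2 fold change was 2.52 ± 0.40 SE in refed liver (n = 3 per group, limma adjusted p = 0.00604), where the mean was 11.9-fold higher, and 1.45 ± 0.40 in fasted liver (limma adjusted p = 0.0271), where it was 4.21-fold higher. The fasted call was lost under 7 of 18 other settings, with adjusted p-values up to 0.0971 when replicate 3 of fasted *Lpin1*+/+ was left out. The difference between the 2 genotype effects was 1.08 ± 0.56 (limma adjusted p = 0.341), the lowest p among the 9 genes in that test.

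*Plin3* (chr17:56277476-56292873, minus strand), a perilipin made in most tissues that coats small new droplets, was the steadiest of the family. It was at 26.3, 18.5, and 24.3 RPKM in fasted *Lpin1*+/+ and at 22.4, 30.1, and 45.4 RPKM in fasted *Lpin1*-/- liver. In refed liver it was at 27.3, 22.8, and 16.5 RPKM in *Lpin1*+/+ and at 38.5, 38.0, and 27.4 RPKM in *Lpin1*-/-, and only there were the genotypes separate, by a gap of less than 1 RPKM. Its log2 fold change of 0.44 in fasted liver (95% interval -0.16 to 1.04, limma adjusted p = 0.291) and 0.63 in refed liver (0.03 to 1.23, adjusted p = 0.2003) did not pass the test.

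**Figure D2:**
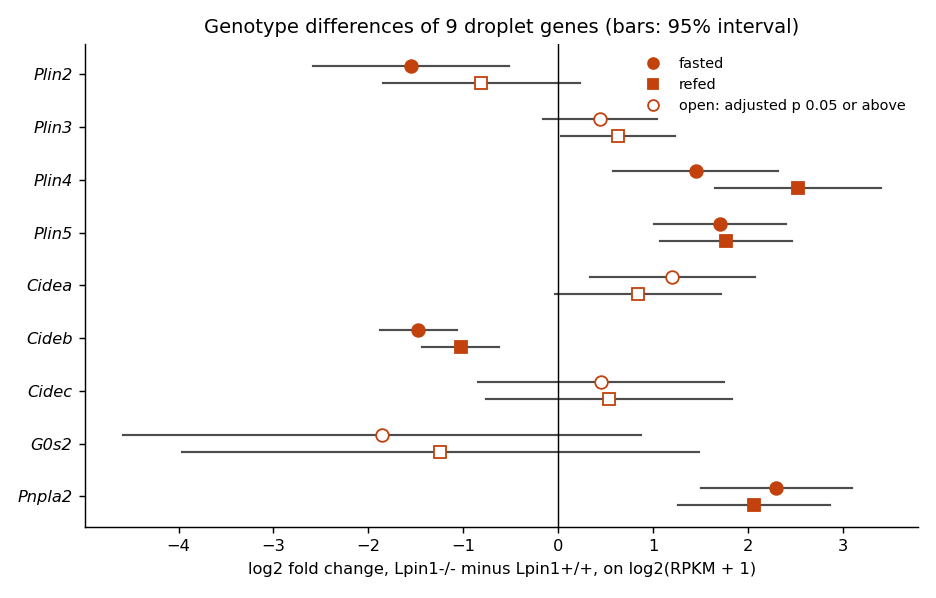
Log2 fold change between Lpin1-/- and Lpin1+/+ liver on the log2(RPKM + 1) scale for the 9 genes tested, with circles for fasted and squares for refed liver, 95% intervals as lines, and filled symbols where the limma adjusted p is under 0.05. Pnpla2, Plin5, and Plin4 lie to the right and Cideb to the left of 0 in both states, Plin2 is filled in fasted liver only, and the intervals of Plin3, Cidea, Cidec, and G0s2 belong to open symbols.

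Of the CIDE genes, *Cideb* (chr14:55754050-55758458, minus strand), the one that hepatocytes normally use, fell in *Lpin1*-/- liver in both states. *Cideb* was at 278, 239, and 290 RPKM in fasted *Lpin1*+/+ and at 93.4, 103, and 90.4 RPKM in fasted *Lpin1*-/- liver. In refed liver it was at 231, 245, and 341 RPKM in *Lpin1*+/+ and at 121, 129, and 145 RPKM in *Lpin1*-/-. Its levels formed 3 tiers that did not overlap, namely all *Lpin1*+/+ libraries, then refed *Lpin1*-/-, then fasted *Lpin1*-/-. The mean was 2.81-fold lower in fasted *Lpin1*-/- (log2 fold change -1.48 ± 0.19 SE, n = 3 per group, limma adjusted p = 0.000654) and 2.07-fold lower in refed *Lpin1*-/- liver (-1.03 ± 0.19, limma adjusted p = 0.0101). The log2 difference between the refed and fasted *Lpin1*-/- tiers was 0.45 and did not pass (limma adjusted p = 0.102), and it was 0.09 when libraries were rescaled by median ratios (adjusted p = 0.814).

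*Cidea* (chr18:67343604-67367785, plus strand), a gene of brown fat and of fatty liver, was barely present in *Lpin1*+/+ liver. Its levels were 0.0843, 0.224, and 0.277 RPKM in fasted *Lpin1*+/+ and 5.45, 1.04, and 0.553 RPKM in fasted *Lpin1*-/- liver. In refed liver they were 0.0974, 0.286, and 0.169 RPKM in *Lpin1*+/+ and 1.17, 1.28, and 0.911 RPKM in *Lpin1*-/-. All 6 *Lpin1*-/- libraries lay above all 6 *Lpin1*+/+ libraries, and replicate 1 of fasted *Lpin1*-/- was far above the rest. The log2 fold change of 1.199 ± 0.40 in fasted liver (n = 3 per group, limma adjusted p = 0.0566) and 0.84 ± 0.40 in refed liver (adjusted p = 0.239) did not pass, although the mean RPKM was 12.0 and 6.09 times higher. *Cidea* passed the minimum mean of 0.5 RPKM only through the *Lpin1*-/- groups, as its *Lpin1*+/+ means were 0.195 RPKM fasted and 0.184 RPKM refed. All p-values given here for *Cidea* depend on that filter. With a pseudocount of 0.1 in place of 1, the fasted difference was 2.51 (limma adjusted p = 0.0209). Limma on the recovered reads (voom) gave 3.01 (adjusted p = 0.0494). Leaving out the high library, replicate 1 of fasted *Lpin1*-/-, gave a fasted difference of 0.58, which did not pass, and the refed difference of 0.84 then passed (adjusted p = 0.0138).

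Because *Cidea* is also an adipocyte marker, the other 6 adipocyte markers were read in the same libraries. *Lep* was at 0 in all 12 libraries, *Plin1* was at most 0.0391 RPKM, and *Adipoq* was at most 0.243 RPKM. In fasted liver, the means of *Fabp4*, *Cfd*, *Retn*, and *Plin1* were higher in *Lpin1*-/-, as for *Cidea*, and that of *Adipoq* was lower. *Cfd* averaged 0.0287 RPKM in *Lpin1*+/+ and 0.0853 RPKM in *Lpin1*-/-, *Retn* 0.00943 and 0.0559 RPKM, *Plin1* 0.00772 and 0.0150 RPKM, and *Adipoq* 0.112 and 0.0117 RPKM. The summed level of the 7 markers was nevertheless 10.5 to 18.3 RPKM in fasted *Lpin1*+/+ and 69.2 to 101.8 RPKM in fasted *Lpin1*-/- liver, nearly all of it from the fatty acid-binding protein gene *Fabp4*, which had a mean of 12.8 and 84.3 RPKM in these groups. The refed sums overlapped, at 14.6 to 38.5 RPKM for *Lpin1*+/+ and 24.8 to 39.1 RPKM for *Lpin1*-/-. Of the other nonparenchymal cells, the 7 stellate cell markers summed to 80.5 to 186 RPKM in fasted *Lpin1*+/+ and 220 to 315 RPKM in fasted *Lpin1*-/- liver, and the 10 Kupffer cell or macrophage markers to 192 to 395 and 367 to 1000 RPKM. *Dcn* made up most of the stellate sum, with means of 116 and 228 RPKM, whereas the means of *Lrat*, *Reln*, and *Hhip* were lower in fasted *Lpin1*-/- liver. In refed liver the Kupffer cell sums were 109 to 930 RPKM in *Lpin1*+/+ and 117 to 272 RPKM in *Lpin1*-/-. Between fasted genotypes, 0 of 6 stellate and 0 of 10 Kupffer cell markers tested passed (limma, 2 and 0 at an unadjusted p under 0.05). Of 6 sinusoidal endothelial markers 1 passed, as did 1 of 2 adipocyte markers tested, both higher in *Lpin1*-/-, and 0 of 5 biliary markers passed. The fasted sinusoidal sums were 20.1 to 50.3 RPKM in *Lpin1*+/+ and 40.4 to 59.7 RPKM in *Lpin1*-/-. The fasted biliary sums were 32.1 to 45.8 RPKM in *Lpin1*+/+ and 24.9 to 451 RPKM in *Lpin1*-/-. The part of these cells in the differences was not tested.

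*Cidec* (chr6:113424634-113435760, minus strand), which fuses droplets into larger ones, overlapped between the genotypes in both states. Fasted liver had 7.52, 3.97, and 8.44 RPKM in *Lpin1*+/+ and 9.31, 15.5, and 4.96 RPKM in *Lpin1*-/-. Refed liver had 18.5, 9.75, and 8.01 RPKM in *Lpin1*+/+ and 5.29, 32.6, and 25.9 RPKM in *Lpin1*-/-. Its genotype differences of 0.45 in fasted (95% interval -0.85 to 1.74, limma adjusted p = 0.640) and 0.53 in refed liver (-0.76 to 1.82, adjusted p = 0.638) were within the spread. Without replicate 1 of refed *Lpin1*-/-, the low library of its group, the response of *Cidec* to refeeding in *Lpin1*-/- liver was 1.58 (limma adjusted p = 0.0433), in contrast to 0.83 (adjusted p = 0.334) with all libraries.

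Refeeding itself moved none of the 9 genes past the threshold in either genotype. In *Lpin1*+/+ liver, the log2 fold changes from the fasted to the refed state ranged from -0.48 to 0.79 (limma adjusted p = 0.611 to 0.997, 0 at an unadjusted p under 0.05), where 1.72% of all genes were called. In *Lpin1*-/- liver, they ranged from -0.57 to 1.40 (limma adjusted p = 0.102 to 0.772, 1 at an unadjusted p under 0.05), where 20.7% of all genes were called. *G0s2* accounted for the upper end of both ranges, with 0.79 (95% interval -1.94 to 3.51) in *Lpin1*+/+ and 1.40 (-1.32 to 4.12) in *Lpin1*-/- liver. With a library left out, these ran from -0.46 to 1.42 and from 0.14 to 2.33, the lowest without replicate 1 of fasted *Lpin1*+/+ and replicate 3 of fasted *Lpin1*-/-, respectively. *Pnpla2* was at the lower end in *Lpin1*-/- liver, with -0.57 (-1.37 to 0.23), and with -0.94 under rescaling by median ratios (limma adjusted p = 0.0559). The genotype effects were not shown to differ between the feeding states for any of the 9 genes (interaction term, limma adjusted p = 0.341 to 0.964, 0 at an unadjusted p under 0.05), and 1.28% of all genes were called in that test. A test with limma on the recovered reads (voom) likewise called 0 of the 9 genes for either feeding response and for the interaction.

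Other droplet genes, listed by role, included some that responded to feeding. For reading their counts, 18.8% of all genes tested were called between fasted genotypes, 6.67% between refed genotypes, and 20.7% for refeeding in *Lpin1*-/- liver. Of 10 surface protein genes tested, 5 passed in fasted liver between genotypes, 2 of them higher in *Lpin1*-/-, and 5 passed for refeeding in *Lpin1*-/- liver, 3 of them higher. Of 10 lipase and cofactor genes tested, 3 were lower in fasted *Lpin1*-/- liver and 4 rose on refeeding in *Lpin1*-/- liver. Of 6 droplet formation genes, 2 passed between genotypes in fasted liver and 2 in refed liver, 1 in each direction each time, and 0 responded to feeding. In refed liver, 3 surface protein genes were lower and 1 lipase gene was higher in *Lpin1*-/- mice. None of the 26 genes tested passed for refeeding in *Lpin1*+/+ liver (limma, 3 at an unadjusted p under 0.05). The median log2 fold changes in fasted liver were -0.37 for surface proteins, -0.36 for lipases, and -0.26 for formation genes, below the -0.14 of all genes tested.

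*Hilpda*, whose product sits on droplets and inhibits ATGL as G0S2 does, had the largest difference of these lists. It was at 6.66, 10.05, and 14.2 RPKM in fasted *Lpin1*+/+ and at 142, 56.4, and 132 RPKM in fasted *Lpin1*-/- liver. In refed liver it was at 14.4, 12.4, and 9.21 RPKM in *Lpin1*+/+ and at 7.23, 10.4, and 10.1 RPKM in *Lpin1*-/-. Only the fasted *Lpin1*-/- group was raised, 10.7-fold over fasted *Lpin1*+/+ (log2 fold change 3.25 ± 0.35 SE, n = 3 per group, limma adjusted p = 0.000358). The interaction term, -3.58 ± 0.50, passed too (limma adjusted p = 0.00915). Therefore, in fasted *Lpin1*-/- liver the lipase gene *Pnpla2* and the inhibitor gene *Hilpda* were both above *Lpin1*+/+, whereas the values of the inhibitor gene *G0s2* overlapped.

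Further down the lipolytic pathway, *Mgll*, the lipase that cleaves monoglycerides, was at 48.4, 36.6, and 59.2 RPKM in fasted *Lpin1*+/+ and at 3.76, 11.3, and 11.8 RPKM in fasted *Lpin1*-/- liver. Refed *Lpin1*-/- liver was at 38.1 to 43.4 RPKM. The fasted difference was -2.41 ± 0.46 (n = 3 per group, limma adjusted p = 0.00534), the opposite direction to *Pnpla2* in the same libraries. *Lipa*, the lysosomal acid lipase, was also lower in fasted *Lpin1*-/- liver, with a mean of 29.6 against 86.7 RPKM (log2 fold change -1.50 ± 0.19, limma adjusted p = 0.000663). *Ddhd2*, a triglyceride and phospholipid lipase, was lower in fasted (1.66 against 4.51 RPKM, adjusted p = 0.0282) and higher in refed *Lpin1*-/- liver (7.96 against 3.25 RPKM, adjusted p = 0.0411), with an interaction of 2.06 ± 0.39 (limma adjusted p = 0.0325). These *Ddhd2* calls were not firm: the refed call was lost under 11 of 18 other settings (adjusted p up to 0.143) and the interaction under 10 of 17 (up to 0.110), and the fasted adjusted p reached 0.0937.

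*Acsl3*, which activates fatty acids for droplet growth, had the opposite pattern to *Ddhd2*. It was higher in fasted (5.27 against 2.09 RPKM, limma adjusted p = 0.00550) and lower in refed *Lpin1*-/- liver (1.35 against 4.59 RPKM, limma adjusted p = 0.00691), and its interaction of -2.26 ± 0.28 passed (limma adjusted p = 0.00664). *Mettl7b*, a methyltransferase-like droplet protein, was lower in *Lpin1*-/- liver in both states, with 284 against 725 RPKM in fasted and 319 against 889 RPKM in refed liver (limma adjusted p = 0.0197 and 0.0326). The fasted call of *Mettl7b* was lost under 5 of 19 other settings (adjusted p up to 0.0822) and the refed call under 9 of 19 (up to 0.127). Also lower was *Bscl2*, which encodes seipin, the protein that organizes budding droplets, with 22.7 against 47.5 RPKM in refed liver (log2 fold change -1.03 ± 0.15, limma adjusted p = 0.00359) and 24.1 against 40.3 RPKM in fasted liver (adjusted p = 0.00789). Under other settings, the limma adjusted p of *Bscl2* reached 0.0188 in refed and 0.0682 in fasted liver, so the fasted call did not always hold.

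**Figure D3:**
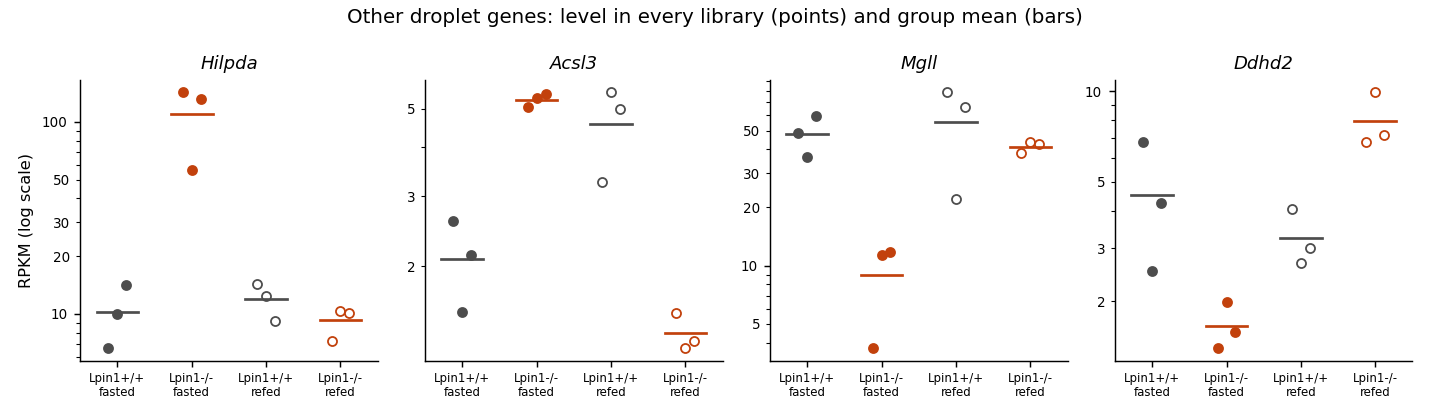
RPKM of 4 other droplet genes on a log axis, with a point for each library and a bar for each group mean, filled for fasted and open for refed, gray for Lpin1+/+ and orange for Lpin1-/-. In fasted Lpin1-/- liver Hilpda and Acsl3 lie above and Mgll and Ddhd2 below fasted Lpin1+/+, and in refed Lpin1-/- liver Acsl3 lies below and Ddhd2 above refed Lpin1+/+.

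Among the 11507 genes tested, those closest in pattern to single droplet genes were found by the root mean square (RMS) difference of log2(RPKM + 1) values centered on each gene's mean, over the 12 libraries. The closest were *Ngef* (0.16) and *Acsm5* (0.18) to *Cideb*, and *Slc25a51* (0.25) and *Chaf1b* (0.29) to *Pnpla2*. *Slc25a51* averaged 23.4 RPKM in fasted *Lpin1*+/+ and 137 RPKM in fasted *Lpin1*-/- liver. *Plin2* was closest to *Cd1d1* (0.29) and *S100a10* (0.30), and *Cidea* to *Cystm1* (0.30) and *Myo16* (0.30). *Plin5* was closest to the linker histone gene *H1f0* (0.34) and to *Gpat4* (0.35), which encodes an acyltransferase of triglyceride synthesis and averaged 80.5 RPKM in fasted *Lpin1*+/+ and 246 RPKM in fasted *Lpin1*-/- liver. *Plin4* was closest to *Paics* (0.38) and *Tspyl4* (0.39). *G0s2* had no close match, with 0.94 to *Mup18* and 1.11 to *Adh1*. *Plin3* varied too little to be matched.

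Exon use is a second readout of the same genes, since the authors also deposited inclusion and skipping counts of skipped exons. In fasted liver, 93 events of the droplet genes had at least 10 counts in every library, and 16 of them differed between genotypes (limma on the log2 ratio of inclusion to skipping, adjusted p under 0.05), beside 11.3% of all 69644 events tested. In refed liver, 4 of 51 differed, beside 0.970% of all 65231 events. Of the 16 fasted calls, 13 were in *Plin2*, 2 in *Pnpla2*, and 1 in *Plin5*, and 9 of them amounted to less than 2 percentage points of inclusion. The 4 refed calls were 2 events each in *Pnpla2* and *Plin2*, and all were lost when any 1 library was left out. When only events averaging at least 5 counts of the rarer form were kept, 14 of 24 differed in fasted liver (limma). Over all genes it was 6129 of 18096 events. In refed liver it was 6 of 15, beside 1358 of 18162 over all genes. The other events had few counts of 1 form, so their ratio depends on read depth as well. Several events share an exon or its reads, so they are not independent.

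The exon with the firmest difference was a coding exon of *Pnpla2*, exon 6 of 9 in a GENCODE M21 transcript (GRCm38 chr7:141458592-141458759, plus strand). It is 168 bases long, or 56 codons, so that skipping it keeps the reading frame. The sequence is shown because a second event used a later start of the same exon, and capitals mark the 126 bases, from base 43 on, that belong to both.
Pnpla2 exon 6: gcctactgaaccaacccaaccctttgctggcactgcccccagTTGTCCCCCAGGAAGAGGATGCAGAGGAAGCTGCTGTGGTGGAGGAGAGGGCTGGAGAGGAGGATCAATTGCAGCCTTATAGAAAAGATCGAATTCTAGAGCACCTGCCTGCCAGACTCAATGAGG
Its inclusion was 99.8%, 100%, and 100% in fasted *Lpin1*+/+ and 85.2%, 90.1%, and 95.8% in fasted *Lpin1*-/- liver. Skipping was counted by 2, 0, and 0 reads in fasted *Lpin1*+/+ and by 277, 446, and 206 reads in fasted *Lpin1*-/- libraries. The 0 of 1523 and 0 of 2268 counts allow a skipping share of up to 0.197% and 0.132% of raw counts, for counting error only. Inclusion percentages are normalized for length, so these shares are not on their scale. In the other fasted *Lpin1*+/+ library, 2 of 4387 raw counts were skipping at an inclusion of 99.8%. The difference passed in fasted liver (log2 ratio -6.30, limma adjusted p = 0.000854) and whichever library was left out (adjusted p at most 0.0198). In refed liver, inclusion was 95.1%, 95.2%, and 96.6% in *Lpin1*-/- and 99.8%, 100%, and 100% in *Lpin1*+/+ (limma adjusted p = 0.0148, up to 0.0954 with a library left out). Whether the size differed between feeding states was not tested.

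*Plin5* skipped a coding exon in the same direction, exon 8 of 9 in a GENCODE M21 transcript (GRCm38 chr17:56112870-56112983, minus strand), which is 114 bases or 38 codons long and also keeps the frame. It is shown because it had the largest fasted difference in percentage points among the called events, 16.6, and nothing in it is capitalized.
Plin5 exon 8: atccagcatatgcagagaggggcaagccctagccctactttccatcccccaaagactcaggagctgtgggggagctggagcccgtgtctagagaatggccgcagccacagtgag
Inclusion was 98.6%, 99.5%, and 97.7% in fasted *Lpin1*+/+ and 73.0%, 79.2%, and 94.0% in fasted *Lpin1*-/- liver (limma adjusted p = 0.0117). The call was lost in 4 of the 6 fits that left out a library, with adjusted p-values up to 0.0754. In refed liver, all *Lpin1*-/- libraries were again below all *Lpin1*+/+ libraries, at 93.2%, 93.8%, and 96.0% against 99.2%, 99.3%, and 99.9%, but the difference did not pass (limma adjusted p = 0.0590).

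In *Plin2*, an exon with no entry in GENCODE M21 (chr4:86663136-86663268, minus strand, 133 bases), between exons 4 and 5 of the annotated transcript, was used in fasted *Lpin1*-/- liver. Its inclusion was 0.0241%, 0.0659%, and 0.00541% in fasted *Lpin1*+/+ and 18.0%, 8.97%, and 0.652% in fasted *Lpin1*-/- liver (limma adjusted p = 0.00212, at most 0.0398 with a library left out). The 3 *Lpin1*-/- libraries covered a wide range, with 609, 467, and 15 inclusion counts. Inclusion counts take in reads that lie wholly inside the exon, and reads from unspliced RNA count there too. A length of 133 bases does not keep the frame. Of the other 12 *Plin2* events called in fasted liver, 3 were variants of this exon with other ends. Another 1 was a 73-base exon at 0% in *Lpin1*+/+ and 0.348%, 0.174%, and 0.0803% in *Lpin1*-/- liver. The last 8 were events near full inclusion in *Lpin1*+/+ that were at 96.3% to 100% in *Lpin1*-/- liver. For 1 of these 8, a 291-base exon, skipping counts were 0, 1, and 5 in *Lpin1*+/+ and 15, 12, and 1 in *Lpin1*-/-. Its inclusion counts were 12892, 29182, and 38080 in *Lpin1*+/+ and 11167, 12620, and 4628 in *Lpin1*-/-. With few skipping counts in *Lpin1*+/+, the tested ratio depends on read depth as well. The part of read depth in these 8 calls was not tested. No event of *Plin3*, *Plin4*, *Cideb*, or *Cidec* passed. The *Plin4* event with the most counts of the rarer form was at 4.00% to 11.3% in fasted *Lpin1*+/+ and at 16.7% to 33.6% in fasted *Lpin1*-/- liver (limma adjusted p = 0.0713).

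**Figure D4:**
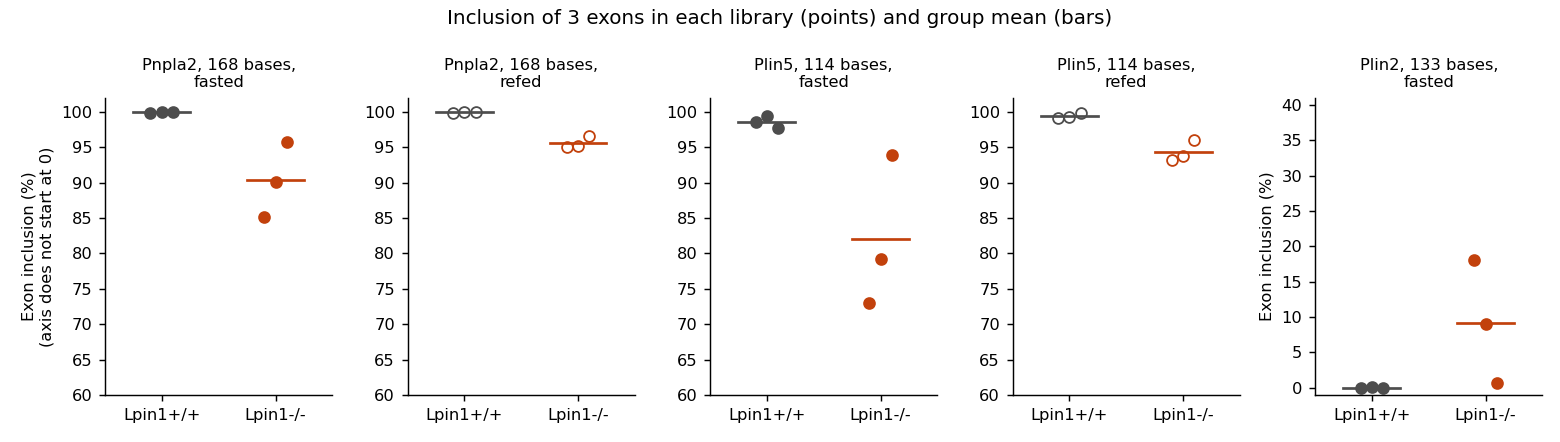
Inclusion in percent of the Pnpla2 and Plin5 coding exons and of the unannotated Plin2 exon, with a point for each library and a bar for each group mean, filled for fasted and open for refed liver. The Pnpla2 and Plin5 exons lie lower in every Lpin1-/- library than in every Lpin1+/+ library of the same state, and the Plin2 exon, plotted for fasted liver only, is near 0% in Lpin1+/+ and at 0.652% to 18.0% in Lpin1-/- liver.

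RefSeq promoter windows on GRCm38.p6, from 250 bases before to 50 after a start, were at hand for 9 of the 10 genes in 11 windows and were searched on both strands for 4 short motifs. A direct repeat of AGGNCA with 1 base between, the form that PPAR-RXR dimers bind, occurred in 0 of the 11 and in 0.381% of all 32851 windows. TCACNCCAC, a site of sterol regulatory element-binding proteins, occurred in 0 of the 11 and in 1.24% of all. CACGTG, the E-box, was found in *Plin2* only (7.15% of all windows), and TATAAA, the TATA box, in *Cideb* only (13.6% of all). Each was thus in 1 of 11 windows, a share not far from that of all windows, and nothing is read from it. These 2 windows are shown as the ones with a match, in capitals, and each is printed up to 10 bases past the start. The match begins 4 bases before the start in *Plin2* and 172 bases before it in *Cideb*, and no match says only that these letters are not in a window.
Plin2 promoter (chr4:86670050-86670309, minus strand): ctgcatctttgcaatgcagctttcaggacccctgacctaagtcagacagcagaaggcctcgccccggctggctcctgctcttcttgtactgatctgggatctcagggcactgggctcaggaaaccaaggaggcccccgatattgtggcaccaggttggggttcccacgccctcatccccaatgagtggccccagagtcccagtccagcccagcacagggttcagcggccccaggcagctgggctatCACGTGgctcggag
Cideb promoter (chr14:55758415-55758674, minus strand): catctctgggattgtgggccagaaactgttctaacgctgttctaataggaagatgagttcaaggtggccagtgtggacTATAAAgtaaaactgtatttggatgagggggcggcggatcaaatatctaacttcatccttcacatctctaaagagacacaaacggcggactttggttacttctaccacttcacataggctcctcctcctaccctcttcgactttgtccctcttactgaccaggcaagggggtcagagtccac
The windows of *Pnpla2*, *Plin4*, and *Plin5* had a GC content of 60.3% to 69.3%, beside 48.0% in *Cideb*, 60.7% in *Plin2*, and a median of 52.7% over all windows. Genes that were not called had 66.7% (*G0s2*), 59.3% (*Plin3*), and 55.7% and 56.3% (*Cidec*), and *Pnpla3* had 59.7%. High GC was thus not particular to the genes that rose.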

How the data were processed

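RNA-Seq of 12 livers was used, with 3 libraries per group as the labels assign them. The authors used HISAT2 2.0.5 (GRCm38) for alignment and HTSeq 0.6.0 for gene counting, and the deposited gene values are RPKM. Skipped exons come from rMATS, as deposited counts of inclusion and of skipping whose 3 values per group carry no replicate numbers. Gene values resolve to whole reads for 100% of 18696 genes (tolerance 0.01 reads), with 93.5 to 124.9 M mapped reads per library.

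The 11507 genes averaging 0.5 RPKM or more were tested on log2(RPKM + 1) in one limma fit (3.58.1, R 4.3.3) of 4 groups with a variance trend, adjusted by Benjamini and Hochberg over all genes, threshold 0.05. Exon events were kept if no library had under 10 counts and were tested with limma on the length-normalized log2 ratio, with 0.5 added to each count. Errors of fold changes are SE. Both tests were tested on simulated data. For genes in the fasted genotype comparison, 40 of 105 log2 changes of 1 and 75 of 95 changes of 2 were recovered, with 3 false calls. For events with a log2 change of 3, 212 of 1000 were recovered in fasted and 355 of 1000 in refed liver. False event calls numbered 10 and 22. The simulated events were normal draws of the log2 ratio without read counts. False calls that come from low counts or from read depth were therefore not tested. Many true changes of these sizes would thus be missed. With 3 against 3, the smallest exact permutation p is 0.1. No 2 libraries held identical values.

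All 10 genes, *Lpin1*, other droplet genes past the threshold (at most 4 per contrast), the 2 most similar genes, and called exon events are named. The genes most similar to *Cidec* are not reported here. The genes and lists were chosen with earlier results of these data known. Alternatives were pseudocount 0.1, no filter or at least 5 RPKM, rescaling by median ratios, the replicate number as a block, only the 6 libraries compared, each library left out, and for events at least 20 counts or 1 added. Chosen after seeing the data were voom on the recovered reads and at least 5 counts of the rarer form. The authors' own fold changes, p-values, and selected subsets were not used as results. Positions are GENCODE M21 on GRCm38.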

Additional observations from a re-analysis of the deposited data

Results flagged for a closer look

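Of the droplet genes and the related lists, 3 related genes had genotype effects that differed between fasted and refed liver by the interaction term (limma, adjusted over all genes), each with n = 3 per group. For *Hilpda* the refed effect was lower than the fasted effect by -3.58 on the log2 scale (adjusted p = 0.00915, 0.00490 to 0.0378 under the alternatives). For *Acsl3* the difference was -2.26 (adjusted p = 0.00664, 0.00230 to 0.0345), and the 2 genotype effects had opposite signs. For *Ddhd2* it was 2.06 (adjusted p = 0.0325, 0.00992 to 0.110), also with opposite signs, and it was lost under 10 of 17 alternatives. Groups of 3 are too small for a test of single outlying libraries.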

How the results depend on the processing

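Of the 9 genotype differences of droplet genes that passed, 7 did so under every alternative, and the exceptions were *Plin2* and *Plin4* in fasted liver. The count of genes called in fasted liver was 5. It was 3 with the replicate number as a block and 3 with only the 6 libraries compared. With pseudocount 0.1 or with voom it was 6, as *Cidea* passed too (limma adjusted p = 0.0209 and 0.0494). With a library left out it was 3 to 5 (3 without replicate 2 or replicate 3 of fasted *Lpin1*+/+). The block changed no other count of called droplet genes. In deviations from group means, 8 of 18 same-numbered pairs of libraries correlated above 0.1 (range -0.47 to 0.74). Fasted *Lpin1*+/+ correlated with refed *Lpin1*-/- at 0.74, 0.54, and 0.39, and with fasted *Lpin1*-/- at -0.47, -0.37, and -0.23. Pairs of different numbers are not given as a reference, so whether the numbers pair the mice cannot be told from these values. For refeeding in *Lpin1*-/- liver the count of called droplet genes was 0 to 1 with a library left out. *G0s2* in *Lpin1*+/+ liver turned from 0.79 to -0.46 without replicate 1 of fasted *Lpin1*+/+ (range -0.46 to 1.42 with a library left out). The exon events called numbered 7 to 26 in fasted liver and 0 in refed liver with a library left out (limma, where 11 to 14 had an unadjusted p under 0.05). With 1 added to each count, 8 refed events were called. No paired analysis was run for exon events, whose values carry no replicate numbers. Rescaling moved the median of all genes by 0.16 between fasted genotypes, by -0.17 and -0.28 for refeeding in *Lpin1*+/+ and *Lpin1*-/- liver, and by -0.11 for the interaction, and left 4 droplet genes called in fasted and 4 in refed liver. Over all genes, calls ranged from 1011 to 2324 in fasted and 242 to 1046 in refed liver between genotypes, from 0 to 229 and 1122 to 3108 for refeeding in *Lpin1*+/+ and *Lpin1*-/-, and from 30 to 306 for the interaction, under the alternatives. Rescaling also moved the split of calls, from 648 higher and 1520 lower to 1059 and 1199 between fasted genotypes, from 299 and 468 to 414 and 414 between refed genotypes, and from 175 and 23 to 48 and 28 and from 2046 and 336 to 1024 and 706 for refeeding in *Lpin1*+/+ and *Lpin1*-/-. Exon events called over all genes ranged from 3821 to 9479 in fasted and 0 to 15 in refed liver with a library left out, and numbered 1334 in refed liver with 1 added. Read counts were lowest for *Pnpla3* and *Cidea*, and counting error was largest there. Except where a value shows it, the cause was not tested.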
